A study of Homo sapiens with 4 samples.

Results

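Cells of an epithelial type hold on to each other through 2 kinds of cadherin-based junction, and this account follows the RNA of 10 genes that build them in naïve human embryonic stem cells (ESCs). The genes were chosen as parts of these junctions, with earlier results of these data known. They are the classical cadherins CDH1, CDH2 and CDH3, the catenins CTNNA1, CTNND1 and JUP, and the desmosome genes PKP2, DSP, DSG2 and DSC2. Their symbols were matched to the Ensembl identifiers of the count files, so that 10 of 60564 listed genes are described, and all 10 passed the filter on low counts.

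The cells were Elf1, a naïve human ESC line derived from an early embryo. The 2-D grown cells adhered to coated plastic plates. The study's methods name mouse feeder cells for 2-D culture. For the feeder-free step before encapsulation they name Matrigel, a basement membrane extract. They do not say which coat the sequenced 2-D cells had. The 3-D grown cells were dissociated to single cells and enclosed in a gel that assembled around them from the polyethylene glycol polymers PEG-8-SH and PEG-8-Acr, and they stayed there for 21 days. Both conditions used the same ESC expansion medium. Per the study's methods it held FGF2, human LIF and the small molecules CHIR99021 and, as spelled there, PD03296501. Each condition was sequenced as 2 independent biological replicates, so 4 RNA-seq libraries were compared. All samples came from 1 cell line, the 2-D cells were passaged routinely while the scaffold cells stayed in place, and the line was kept on mouse feeder cells before its transfer to Matrigel. Time since passage, matrix and geometry, and possibly the presence of feeder cells, therefore differed together between the conditions and cannot be told apart.

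In an adherens junction, classical cadherins of neighbouring cells bind each other outside the membrane. Inside it, their tails hold p120-catenin (CTNND1) and β-catenin or plakoglobin (JUP), and α-catenin (CTNNA1) links the complex to actin. In a desmosome, the cadherins desmoglein and desmocollin bind plakoglobin and plakophilin, and desmoplakin (DSP) ties that plaque to keratin filaments. E-cadherin (CDH1) is the main cadherin of the pluripotent epiblast and of ESC colonies, and a switch from E-cadherin to N-cadherin (CDH2) is a known mark of an epithelial-to-mesenchymal transition.

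The 2-D libraries held 33833778 and 30114220 counts and the 3-D libraries 21154409 and 18276147, and every one of the 10 genes had at least 895 counts in each library. Values are TMM-normalized CPM, the usual counts-per-million unit, in which a count is divided by a library size that TMM scaling has adjusted. As a check of the labelled cell type, all 9 pluripotent markers were measured, with LIN28A the highest of them at 1721 to 1812 CPM, while markers of the naïve state were not examined here. Summed levels were 5194 to 5219 CPM in 2-D and 5337 to 5479 CPM in 3-D for the pluripotent markers. Those of the trophoblast and surface ectoderm, endoderm and neural markers summed to at most 11.8 CPM in each library, with CGA, KRT14 and NEUROD1 at 0 in all of them. The 6 mesoderm markers summed to 66.8 to 67.2 CPM in 2-D and 70.9 to 71.8 CPM in 3-D, and none of these 4 lists held a called gene. Of the pluripotent markers 1 was called, L1TD1, at 996 and 994 CPM in 2-D and 1175 and 1135 CPM in 3-D (log2 fold change 0.21, adjusted p = 0.00111 by edgeR). Fibroblast markers were not absent, since the 10 of them summed to 556 to 564 CPM in 2-D and 576 to 627 CPM in 3-D, mostly through the collagen gene COL1A2. Reads were mapped to the human genome, and any reads from mouse feeder cells were not told apart from human ones. RNA was measured in bulk, so a change in the number of cells that make a transcript cannot be told apart from a change in its amount per cell.

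Across the 10 genes, 4 were higher in 3-D grown cells and none was lower at an adjusted p below 0.05 by the quasi-likelihood test of edgeR, adjusted after Benjamini-Hochberg for the 22555 genes tested. The 4 were CDH1, CDH2, CDH3 and DSP, with fold changes between 1.08 and 1.13. Of all tested genes, 4.54% were called higher and 3.36% lower. Both 3-D libraries lay above both 2-D libraries for 8 of the 10 genes and below them for none, where 25.4% of all tested genes lay above and 25.1% below. At an unadjusted p below 0.05 there were 5, all higher (JUP in addition), where 21.3% of all tested genes passed in either direction. The median log2 fold change of the 10 genes was 0.08 and that of all tested genes was -0.00014. Without regard to sign, the median of all tested genes was 0.13. CDH1 (0.11) and CDH2 (0.12) moved less than that, and JUP (0.14), DSP (0.16) and CDH3 (0.18) moved more.

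**Figure D1:**
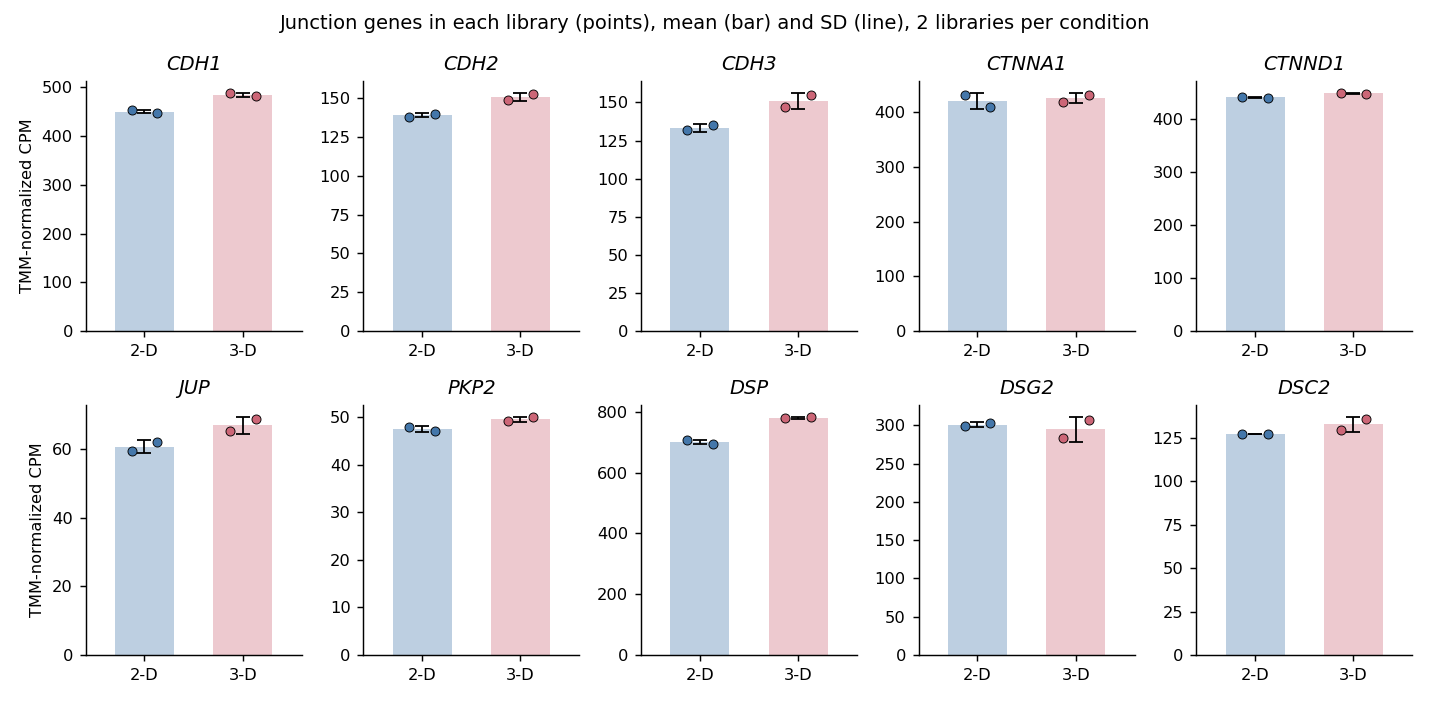
TMM-normalized CPM (vertical axes, each from 0) of the 10 junction genes in the 2-D (blue) and 3-D (red) libraries; points are libraries, bars are means and lines are SDs of 2 libraries. The 3-D points sit above the 2-D points for every gene except CTNNA1 and DSG2, whose points overlap.

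The classical cadherins carried the first group of changes. CDH1 encodes E-cadherin and lies on chromosome 16 (hg38, chr16:68737292-68835537, plus strand). Its level was 453 and 448 CPM in 2-D and 487 and 482 CPM in 3-D. Each 3-D library was thus above each 2-D library, and the gap between conditions was larger than the gap within either. CDH1 was 1.08-fold higher in 3-D, a log2 fold change of 0.11 ± 0.029 (SE) with an adjusted p of 0.0470 by edgeR, just inside the threshold.

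CDH3 encodes P-cadherin, a close relative of E-cadherin, and is the neighbouring gene in the same orientation (chr16:68636189-68727468, plus strand). Levels were 132 and 135 CPM in 2-D and 147 and 155 CPM in 3-D, without overlap. This was the largest change among the 10 genes, 1.13-fold, with a log2 fold change of 0.18 ± 0.033 (SE), a 95% interval of 0.11 to 0.25 and an adjusted p of 0.00575 by edgeR.

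CDH2, for N-cadherin, lies on chromosome 18 (chr18:27932879-28177946, minus strand). It measured 138 and 140 CPM in 2-D and 149 and 152 CPM in 3-D, and again the conditions did not overlap. Its log2 fold change was 0.12 ± 0.030 (SE), a 1.08-fold difference with an adjusted p of 0.0340 by edgeR.

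The 3 cadherins kept nearly the same proportions to each other in both conditions, a measure that no scaling between libraries can move. Of the reads of the 3 genes, CDH1 held 62.7% and 62.0% in 2-D and 62.2% and 61.1% in 3-D. The share of CDH2 was 19.1% and 19.3% in 2-D and 19.0% and 19.3% in 3-D, so the libraries overlapped. CDH3 held 18.2% and 18.7% in 2-D and 18.8% and 19.6% in 3-D, slightly more in each 3-D library. For every CDH2 count there were 3.28 and 3.20 CDH1 counts in 2-D and 3.28 and 3.16 in 3-D, and no exchange of CDH1 for CDH2 reads was seen between the conditions. These shares are descriptions, and their difference was not tested.

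The calls did not rest equally on the libraries and methods. Of 15 alternatives, 8 called CDH1, 8 called CDH2, 14 called CDH3 and 12 called DSP. DESeq2 called CDH1, CDH3 and DSP but not CDH2 (adjusted p = 0.198), and edgeR's likelihood ratio test called CDH3 alone. CDH1 and CDH2 were no longer called without 2-D replicate 1 (adjusted p = 0.257 and 0.311 by edgeR) or without 2-D replicate 2 (adjusted p = 0.392 and 0.200), fits in which the lone 2-D library is assumed to vary like the 3-D libraries. CDH3 was called in each of those fits (adjusted p = 0.0493 and 0.0126), and with library sizes alone none of the 3 was called, where CDH3 had a log2 fold change of 0.11 and an adjusted p of 0.0614.

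The catenins of the adherens junction showed smaller differences. CTNNA1, for αE-catenin (chr5:138610967-138935034, plus strand), measured 430 and 410 CPM in 2-D and 419 and 432 CPM in 3-D. The libraries of the conditions overlapped, the log2 fold change was 0.02 ± 0.034 (SE) and the adjusted p was 0.838 by edgeR. Its 95% interval of 0.96-fold to 1.06-fold bounds the difference. The sign turned to -0.02 without 2-D replicate 2 and to -0.0035 without 3-D replicate 2, and to -0.05 with library sizes alone.

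CTNND1, for p120-catenin, which binds the cadherin tail near the membrane and slows the removal of cadherin from the surface, lies on chromosome 11 (chr11:57753243-57819546, plus strand). Its levels were among the most even of the 10 genes, 440 and 439 CPM in 2-D and 448 and 447 CPM in 3-D. The conditions did not overlap, yet the log2 fold change of 0.03 ± 0.029 (SE) did not pass the test (adjusted p = 0.698 by edgeR), and with library sizes alone it was -0.04. The interval of the fold change ran from 0.97 to 1.06. Parts of 2 other annotated genes on the same strand, ENSG00000288534 and ENSG00000254732, cover 39.1% and 12.7% of its exonic bases. ENSG00000254732 had at most 32 counts in a library. ENSG00000288534 is not among the genes that were counted, so no reads were assigned to it.

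JUP, for plakoglobin, serves both junctions, since it can take the place of β-catenin on classical cadherins and is a fixed part of the desmosomal plaque. The gene lies on chromosome 17 (chr17:41754604-41786931, minus strand). It measured 59.3 and 62.0 CPM in 2-D and 65.1 and 68.7 CPM in 3-D. The 3-D libraries were both higher, with a log2 fold change of 0.14 ± 0.042 (SE), but the adjusted p of 0.0631 by edgeR missed the threshold. JUP was called without 3-D replicate 1 (log2 fold change 0.18, adjusted p = 0.0160) and in the fit with the replicate number as a block (adjusted p = 0.0283). Its GC content of 61.5% was the highest of the 10 genes, and in a fit with offsets for length and GC the log2 fold change fell to 0.08.

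Among the desmosome genes, only DSP passed the test. DSP encodes desmoplakin, the plakin that anchors keratins, and lies on chromosome 6 (chr6:7541338-7586714, plus strand). It had the most reads of the 10 genes, at 707 and 696 CPM in 2-D and 779 and 784 CPM in 3-D. Both 3-D libraries stood clear of both 2-D libraries. DSP was 1.11-fold higher in 3-D, with a log2 fold change of 0.16 ± 0.029 (SE), a 95% interval of 0.09 to 0.22 and an adjusted p of 0.00613 by edgeR. The call was lost without 2-D replicate 2 (log2 fold change 0.14, adjusted p = 0.0861), with edgeR's likelihood ratio test (adjusted p = 0.0793) and with library sizes alone (log2 fold change 0.09, adjusted p = 0.0717).

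PKP2, for plakophilin 2, which gathers desmoplakin at the plaque (chr12:32790745-32896798, minus strand), measured 48 and 47.0 CPM in 2-D and 49.1 and 49.9 CPM in 3-D. The libraries were separated by condition, but narrowly, and the log2 fold change of 0.06 ± 0.046 (SE) had an adjusted p of 0.527 by edgeR. A 1.12-fold rise and a 0.97-fold level both lie within its interval.

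The desmosomal cadherins DSG2 and DSC2, the pair found in simple epithelia, lie in the cluster of desmosomal cadherin genes on chromosome 18. DSG2, for desmoglein 2 (chr18:31498177-31549008, plus strand), measured 298 and 303 CPM in 2-D and 283 and 306 CPM in 3-D. The 3-D libraries spread to both sides of the 2-D libraries, and the log2 fold change of -0.03 ± 0.037 (SE) had an adjusted p of 0.725 by edgeR. The result turned on 1 library, since the log2 fold change was 0.03 (adjusted p = 0.618) without 3-D replicate 1 and -0.09 (adjusted p = 0.0320, called lower) without 3-D replicate 2.

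DSC2, for desmocollin 2 (chr18:31058840-31102522, minus strand), measured 127 and 127 CPM in 2-D and 130 and 136 CPM in 3-D. The 3-D libraries were both above the 2-D libraries, which were almost the same. The log2 fold change was 0.06 ± 0.032 (SE) with an adjusted p of 0.306 by edgeR. DSC2 was called without 3-D replicate 1 (log2 fold change 0.10, adjusted p = 0.0447).

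**Figure D2:**
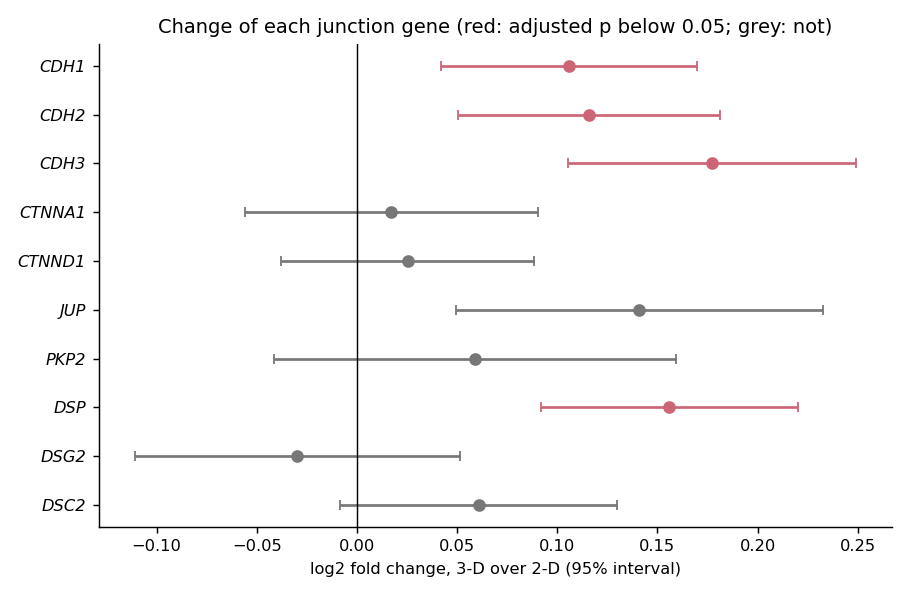
Log2 fold change, 3-D against 2-D (horizontal axis), for the 10 junction genes; points are estimates of edgeR's quasi-likelihood fit and lines are 95% intervals, in red where the adjusted p was below 0.05. CDH1, CDH2, CDH3 and DSP are red between 0.11 and 0.18, and the intervals of CTNNA1, CTNND1, PKP2, DSG2 and DSC2 cross 0.

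Within the desmosome, DSP reads were set against those of its partners. There were 2.37 and 2.30 DSP counts for every DSG2 count in 2-D and 2.75 and 2.56 in 3-D. Against DSC2 the ratio was 5.56 and 5.47 in 2-D and 6.02 and 5.77 in 3-D, and in both cases the 3-D libraries were the higher ones. Against JUP it was 11.9 and 11.2 in 2-D and 11.97 and 11.4 in 3-D, which overlapped. DSP held 57.0% and 56.3% of the reads of the 5 desmosome genes, JUP included, in 2-D and 59.7% and 58.3% in 3-D. These ratios of counts within a library are free of scaling between libraries, and they were not tested.

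Levels of different genes were compared as TMM-normalized CPM per kilobase of the canonical transcript. Over all 4 libraries CTNNA1 was highest at 113, followed by CDH1 at 97.1, DSP at 76.5, CTNND1 at 66.5, DSG2 at 52.3, CDH2 at 36.0, CDH3 at 31.9, JUP at 18.2, PKP2 at 11.5 and DSC2 at 10.5. CDH2 and CDH3 were the only neighbours in this order whose libraries overlapped. On this scale E-cadherin RNA was thus above that of N-cadherin and P-cadherin in every library, and desmoglein 2 RNA was above that of desmocollin 2. The 10 genes lay between percentiles 71.2 (DSC2) and 97.5 (CTNNA1) of all tested genes by the same measure. The order depends on the length used: per kilobase of all annotated exons CDH1 was first at 76.9, then DSP at 54.5 and CTNNA1 at 47.9, and CDH3 (22.2) stood above CDH2 (16.9).

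**Figure D3:**
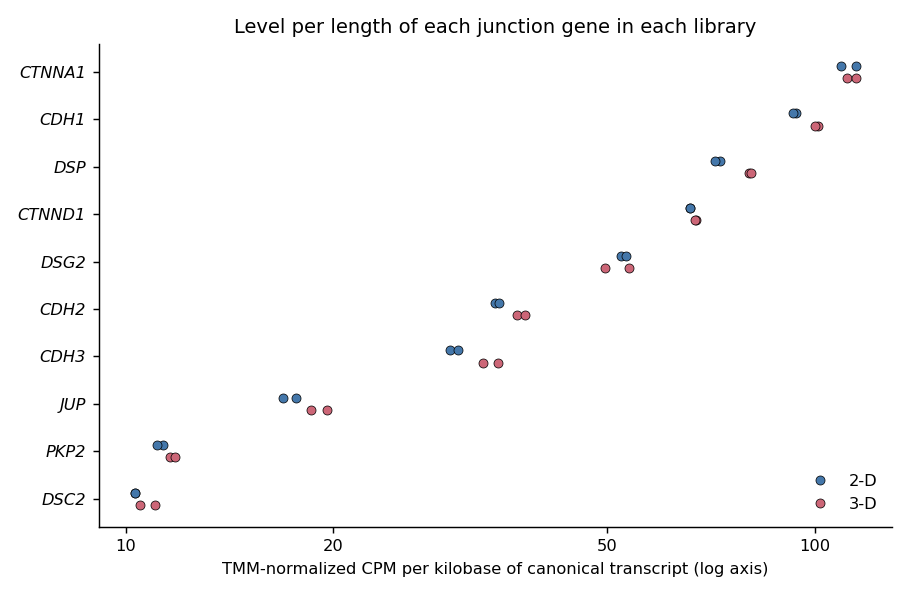
Level of the 10 junction genes as TMM-normalized CPM per kilobase of canonical transcript (horizontal log axis) in the 2-D (blue) and 3-D (red) libraries, ordered by their mean. CTNNA1 and CDH1 stand near 100, and PKP2 and DSC2 near 11.

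Promoter sequence was examined for the genes with an entry in the RefSeq promoter set (GRCh38.p14), which were 6 of the 10, CDH2, CTNNA1, JUP, DSP, DSG2 and DSC2. SNAI and ZEB proteins, the repressors of cadherin genes, bind E-boxes, whose letters are CANNTG, and prefer CAGGTG, so both were searched on both strands in the 250 bases before each gene's canonical start. CAGGTG matches are also CANNTG matches. Of 18488 windows of this length for tested genes, 55.66% held a CANNTG and 16.28% a CAGGTG. Those windows include every listed start of a gene, so a gene with several starts entered more than once. The windows of DSP and DSG2 held 2 CAGGTG each, that of DSC2 held 1 among 3 CANNTG, and those of CDH2, CTNNA1 and JUP held no CANNTG. The called genes CDH1 and CDH3 had no entry, so of the called genes the search covered only DSP and CDH2. Any relation between matches and calls was not tested. A match is a run of letters and says nothing of binding, and no match says only that the letters are absent from the window. CDH2, DSG2 and DSC2 are shown as sense strand, 5′ to 3′, with E-boxes in capitals. The windows are chr18:28177131-28177380 (minus strand) for CDH2, chr18:31497927-31498176 (plus strand) for DSG2 and chr18:31102523-31102671 (minus strand) for DSC2, the last limited to the 149 bases before every annotated exon of the gene. For DSP only 26 bases around each CAGGTG are given, at chr6:7541483-7541508 and chr6:7541576-7541601 (plus strand), since an alternative first exon covers the window.
CDH2: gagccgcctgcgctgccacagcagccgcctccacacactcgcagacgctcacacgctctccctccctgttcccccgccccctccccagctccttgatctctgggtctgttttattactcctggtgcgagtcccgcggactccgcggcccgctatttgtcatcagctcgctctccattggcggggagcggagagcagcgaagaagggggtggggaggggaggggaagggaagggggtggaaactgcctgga
DSG2: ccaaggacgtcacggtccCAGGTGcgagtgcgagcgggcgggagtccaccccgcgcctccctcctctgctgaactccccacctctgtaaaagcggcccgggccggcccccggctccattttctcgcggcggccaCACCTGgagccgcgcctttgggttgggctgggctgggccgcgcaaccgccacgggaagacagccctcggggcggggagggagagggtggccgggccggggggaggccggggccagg
DSC2: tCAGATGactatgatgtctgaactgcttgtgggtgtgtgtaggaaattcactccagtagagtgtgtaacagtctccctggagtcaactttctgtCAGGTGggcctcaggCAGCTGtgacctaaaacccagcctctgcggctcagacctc
DSP, first match: gcggcgggcgCAGGTGgggaggggcg
DSP, second match: agaaaccggcCAGGTGtggcctaggc

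The other genes of these junctions were taken as 8 lists of 65 genes in all, of which 51 were tested. Of these, 7 were called higher in 3-D grown cells and none lower, against 4.54% and 3.36% of all tested genes, 15 had an unadjusted p below 0.05, against 21.3% of all tested genes, and the median log2 fold change was 0.08, the same as that of the 10 genes to 2 decimals. Both 3-D libraries lay above both 2-D libraries for 29 of the 51 and below them for 5, against 25.4% and 25.1% of all tested genes. DESeq2 and the other alternatives called between 4 and 10 of them higher and between 0 and 2 lower.

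Catenins and actin linkers gave 1 called gene of 11 tested. PKP4, for plakophilin 4 (p0071), a relative of p120-catenin found at both kinds of junction, measured 110 and 108 CPM in 2-D and 128 and 125 CPM in 3-D. Its log2 fold change of 0.22 ± 0.030 (SE) had an adjusted p of 0.00101 by edgeR and was called under every alternative tried. The most abundant gene of the list per length was CTNNB1, for β-catenin, which couples E-cadherin to α-catenin and carries Wnt signals. It measured 598 and 590 CPM in 2-D and 543 and 560 CPM in 3-D, with a log2 fold change of -0.11 ± 0.031 (SE) and an adjusted p of 0.0519 by edgeR, just outside the threshold. Under 11 of 15 alternatives CTNNB1 was called lower, with DESeq2 at an adjusted p of 0.0304, without 3-D replicate 1 at 0.0246 and without 3-D replicate 2 at 0.000361. The values of CTNNB1 were thus below those of 2-D in both 3-D libraries. Of its partners CDH1 was above them, and CTNNA1 overlapped between the conditions.

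Nectins are immunoglobulin-type adhesion molecules of the adherens junction that join to actin through afadin. NECTIN1 and NECTIN2 were called higher, 2 of the 4 tested. NECTIN1 measured 73.1 and 72.4 CPM in 2-D and 84.3 and 85.5 CPM in 3-D, with a log2 fold change of 0.22 ± 0.034 (SE) and an adjusted p of 0.00176 by edgeR. NECTIN2 measured 87.8 and 82.8 CPM in 2-D and 93.4 and 96.9 CPM in 3-D, with a log2 fold change of 0.16 ± 0.038 (SE). Its adjusted p was 0.0254 by edgeR, and 9 of 15 alternatives called it. DESeq2 did not (adjusted p = 0.147), and the call was also lost without 2-D replicate 2 (log2 fold change 0.12). The log2 fold changes of NECTIN3 and NECTIN4 were -0.03 and -0.32, and neither passed the test.

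Of the other desmosome and plakin genes, 6 of 10 were tested. The desmosomal cadherins of stratified epithelium DSG1, DSG3, DSG4 and DSC1 were not, with at most 7 counts in a library. PPL, for periplakin, a plakin of the cell cortex, measured 64.0 and 62.0 CPM in 2-D and 69.4 and 71.5 CPM in 3-D. It was called higher with a log2 fold change of 0.16 ± 0.038 (SE) and an adjusted p of 0.0226 by edgeR. Of 15 alternatives, 7 called PPL, and DESeq2 did not (adjusted p = 0.195). With offsets for length and GC its log2 fold change fell to 0.09 (adjusted p = 0.185 by edgeR). The call was also lost without 2-D replicate 1, 2-D replicate 2 or 3-D replicate 2 (log2 fold changes 0.18, 0.14 and 0.14). PERP, a desmosomal membrane protein and the most abundant of the list per length, measured 163 and 170 CPM in 2-D and 157 and 165 CPM in 3-D, which overlapped (log2 fold change -0.05, adjusted p = 0.503).

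The keratins KRT8, KRT18 and KRT19 form the filaments that desmoplakin anchors in simple epithelium and in ESCs. KRT8 measured 613 and 600 CPM in 2-D and 650 and 694 CPM in 3-D, a log2 fold change of 0.15 ± 0.035 (SE) with an adjusted p of 0.0224 by edgeR. Of 15 alternatives, 12 called it. The call was lost with edgeR's likelihood ratio test (adjusted p = 0.145), with library sizes alone (adjusted p = 0.188) and without 2-D replicate 2 (log2 fold change 0.13). KRT18 and KRT19 had log2 fold changes of 0.06 and 0.18 with adjusted p of 0.235 and 0.0555 by edgeR. Both 3-D libraries were above both 2-D libraries for all 3 genes, where 25.4% of all tested genes lay above. KRT8 has 4 and KRT18 has 12 copies elsewhere in the genome that cover at least 80% of the transcript, and KRT19 has 1. The closest copies of KRT8, KRT18 and KRT19 were at 97.1%, 95.3% and 92.1% identity. Among the 10 junction genes such a copy was found only for CTNNA1 and PKP2, at 92.7% and 94.1% identity. The counts of all these genes are uncertain to a degree that was not tested.

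Cadherin repressors are transcription factors that silence CDH1 and other epithelial genes. Of 7 tested, ZEB2 was called higher, at 5.55 and 6.13 CPM in 2-D and 7.88 and 8.26 CPM in 3-D. Its log2 fold change of 0.47 ± 0.12 (SE) had an adjusted p of 0.0289 by edgeR, and 13 of 15 alternatives called it. The call was lost without 2-D replicate 1 (log2 fold change 0.39), and DESeq2 gave ZEB2 no adjusted p. TCF3, the most abundant of the list per length, measured 168 and 166 CPM in 2-D and 169 and 174 CPM in 3-D, with a log2 fold change of 0.04 and an adjusted p of 0.576, and with library sizes alone its sign turned (-0.03). CDH1 and ZEB2 were thus both higher in both 3-D libraries.

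CDH2 and ZEB2 are also made by mesenchymal cells. Of 8 tested fibroblast markers, 4 were called higher in 3-D, against 4.54% of all tested genes. COL1A1, COL3A1, POSTN and THY1 were the 4, with COL3A1 at 9.93 and 10.03 CPM in 2-D and 15.2 and 17.9 CPM in 3-D. COL1A2, the most abundant, at 325 and 316 CPM in 2-D and 301 and 325 CPM in 3-D, overlapped between the conditions, and PDGFRA, PDGFRB and FBN1 did not pass the test either. DCN and LUM had at most 17 counts in a library. The part of mesenchymal cells, or of any mouse feeder reads, in the values of these markers, CDH2, ZEB2 and the other called junction genes was not tested.

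Epithelial regulators of the GRHL, OVOL and ESRP families held no called gene among 7 tested, and 1 had an unadjusted p below 0.05. ESRP1, the splicing factor that sets the epithelial form of p120-catenin and the most abundant of them per length, measured 194 and 195 CPM in 2-D and 203 and 201 CPM in 3-D (log2 fold change 0.05, adjusted p = 0.343), and with library sizes alone its sign turned (-0.01). Of the 6 enzymes and subunits that process or remove cadherins, FURIN, the protease that cuts the cadherin propeptide, was called higher. It measured 53.2 and 54.4 CPM in 2-D and 62.3 and 65.4 CPM in 3-D, with a log2 fold change of 0.25 ± 0.042 (SE), an adjusted p of 0.00352 by edgeR and a call under every alternative tried. NCSTN, a subunit of γ-secretase, was the most abundant per length, at 71.6 and 71.4 CPM in 2-D and 73.2 and 78.3 CPM in 3-D (log2 fold change 0.08, adjusted p = 0.262).

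Other classical cadherins were scarce. Of 15, 7 were tested, none was called, 1 had an unadjusted p below 0.05, and their log2 fold changes ran from 0.02 to 0.42. CDH24 was the most abundant per length at 2.76 (2-D) and 2.81 (3-D) CPM per kilobase, where CDH1 stood at 93.6 and 101. It measured 9.70 and 9.12 CPM in 2-D and 9.24 and 9.93 CPM in 3-D. The 15 genes together summed to 25.9 to 27.3 CPM in 2-D and 28.2 to 29.4 CPM in 3-D, less than CDH3 alone, and CDH12 and CDH19 had no count in any library.

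**Figure D4:**
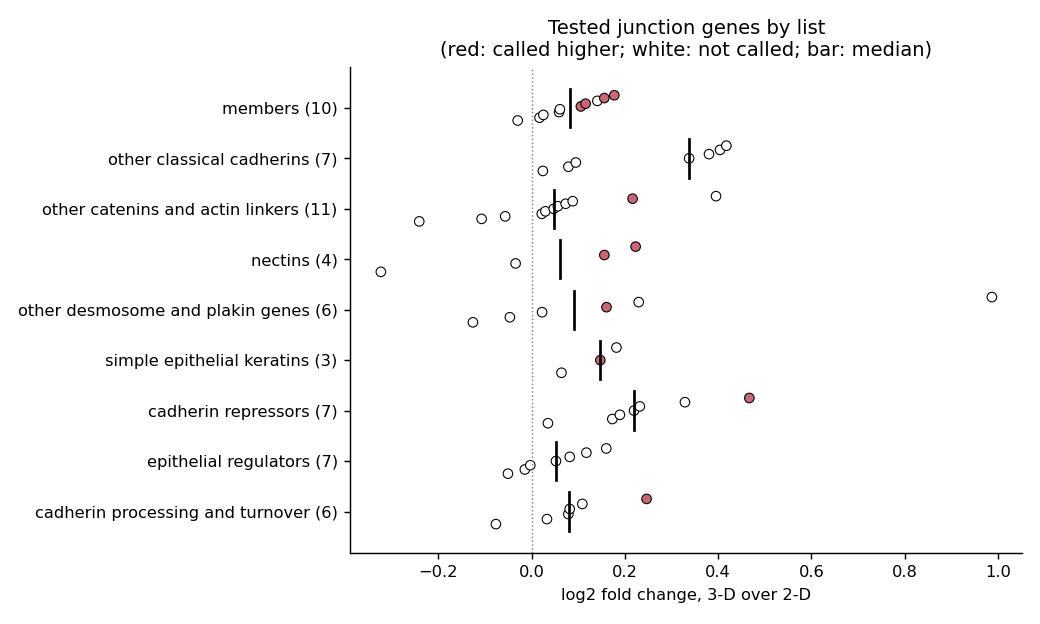
Log2 fold change, 3-D against 2-D (horizontal axis), of each tested gene in the 10 described genes ("members") and in 8 lists of other junction genes, with the number tested in brackets; red points were called higher, white points were not called, and bars are medians. Red points lie between 0.11 (CDH1) and 0.47 (ZEB2), and no gene was called lower.

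Reads of overlapping genes bear on some of these values, because the strand setting of the counting is not given in the sources used here. The antisense transcript ENSG00000260798 covers 5.71% of the exonic bases of CDH1 and was itself called higher, with 1801 and 1547 counts in 2-D, 1247 and 1140 in 3-D and a log2 fold change of 0.28 ± 0.044 (SE; adjusted p = 0.0023 by edgeR). CDH1 had 8637 or more counts in each library. ENSG00000227279, antisense to CDH2 over 3.58% of its exonic bases, had at most 254 counts in a library and a log2 fold change of 0.42 (adjusted p = 0.0621). CDH3-AS1 covers 8.4% of the exonic bases of CDH3 and had at most 221 counts, and LRRTM2 covers 5.04% of those of CTNNA1, with at most 136 counts. Both had log2 fold changes below 0 (-0.18 and -0.33) and neither was called. DSG2-AS1 (1.96%), ENSG00000274976 (4.12% of PKP2), DSP-AS1 (0.595%) and CTNNA1-AS1 (0.849%) also overlap exons of their partner genes, and no gene overlaps exons of JUP or DSC2. How many reads these genes share was not tested.

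The choice of scaling moved the 10 genes together. Values relative to library size alone gave 514 genes higher and 1879 lower among all tested, where TMM gave 1024 and 758, and they moved the median of all genes to -0.06. With that scaling none of the 10 was called in either direction, 5 of them had log2 fold changes below 0, and CDH3 and DSP were the highest at 0.11 and 0.09. With TMM, 9 of the 10 were above 0.

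**Figure D5:**
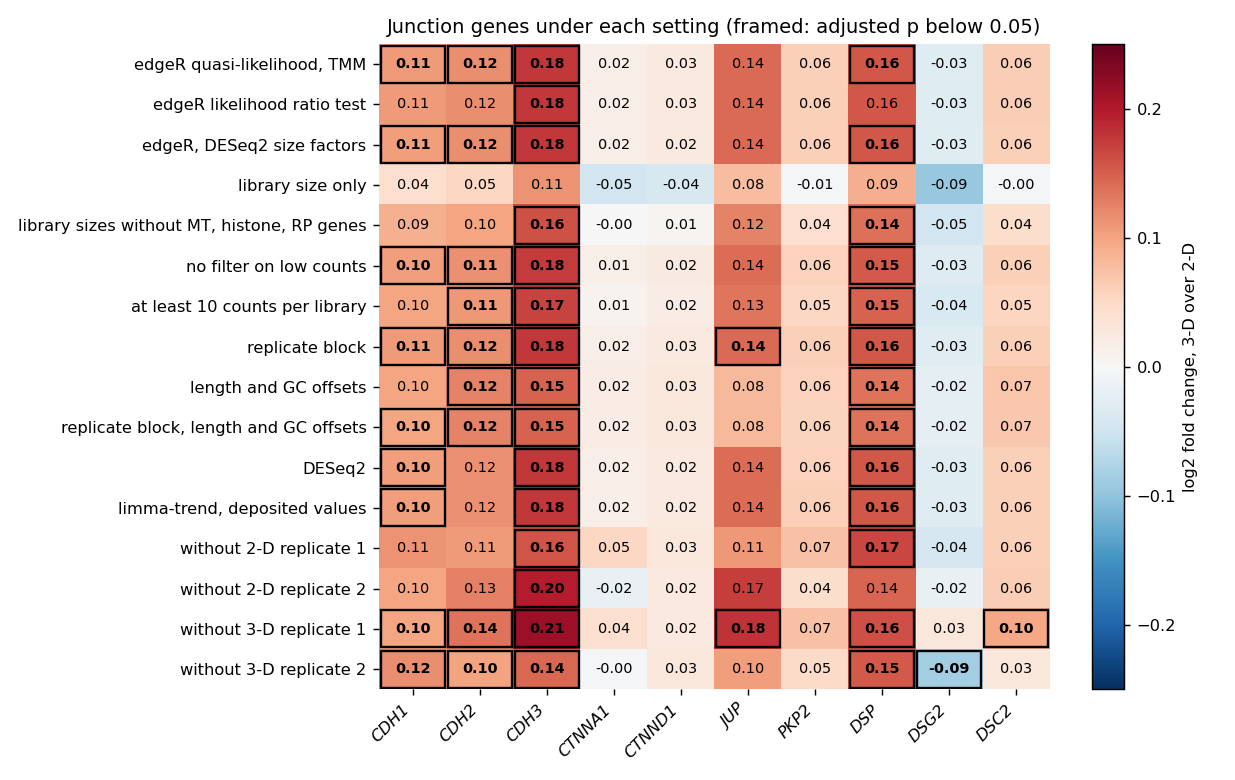
Log2 fold change (colour and number) of the 10 junction genes (columns) under edgeR's quasi-likelihood fit and each alternative (rows); frames mark an adjusted p below 0.05. CDH3 is framed in every row except library size only, and CTNNA1, CTNND1 and PKP2 in none.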

How the data were processed

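RNA of Elf1 cells in 2-D culture and in 3-D scaffolds was compared in 4 libraries, 2 per condition, grouped by the titles of the samples. Per the labels and the study's methods, the authors depleted ribosomal RNA, sequenced paired ends, trimmed reads with Trim Galore 0.6.3, mapped them to hg38 with HISAT2 2.1.0 and counted them on GENCODE genes (release 30 in the methods) with featureCounts 1.6.4. Settings for strand and for reads with several positions are not given in the sources used here. The deposited counts are raw whole numbers for each gene. The deposited normalized signal is a count divided by 1 DESeq2 size factor per library (DESeq2 2.11.40.6), by the authors. The authors' own fold changes, standard errors, Wald statistics, p-values and mean values were not used.

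The counts were fitted in R 4.3.3 with edgeR 4.0.16 (TMM, its filter on low counts, quasi-likelihood test in legacy mode, condition alone in the design, Benjamini-Hochberg adjustment over 22555 genes), and genes with an adjusted p below 0.05 were called. A standard error is the log2 fold change divided by the root of the test's F. p-values weigh a difference against the spread between these samples, for which edgeR fitted a biological coefficient of variation of 5.1%. They do not cover the spread between cell lines. Other models tried were the likelihood ratio test of edgeR and DESeq2 1.42.0. Scaling by DESeq2 size factors, by library size only and by library sizes that leave out mitochondrial, histone and ribosomal protein genes was tried too, as were no low-count filter and a minimum of 10 counts in each library. Further alternatives were a block for the replicate number, offsets for length and GC (splines, 5 degrees of freedom), block and offsets combined, limma-trend (limma 3.58.1) on log2 of the deposited normalized signal plus 1, and each library left out in turn.

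Symbols, positions and lengths came from GENCODE release 44, to which 60295 of 60564 identifiers matched. Copies were sought by aligning transcripts to hg38 with minimap2 2.31-r1302 (at least 80% covered). The 10 genes, the 8 lists of junction genes and the 6 lists of cell type markers were chosen with earlier results of these data known. Named beside the 10 are, from the other lists, every called gene and the tested gene of highest level per length in each list, and every gene whose exons overlap those of the 10; of the marker lists, called genes and abundant or defining ones. Scripts were tested on simulated data. Libraries of a condition differed by more than sampling noise (chi-square over its degrees of freedom 2.27 in 2-D and 3.92 in 3-D), so each was kept as a replicate.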

Additional observations from a re-analysis of the deposited data

How the results depend on the processing

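Of the 150 values that the 10 genes had under 15 alternatives, 120 kept their direction and their side of the threshold. CDH3 lost its call under library size only, and the counts depended on the setting, for causes that were not tested. The 10 genes held 4 called higher, but 1 with edgeR's likelihood ratio test (CDH3), 0 with library size only and 2 with library sizes that leave out mitochondrial, histone and ribosomal protein genes (CDH3 and DSP). With each library left out in turn, 1 to 6 were called higher and 0 to 1 lower (DSG2). Of the other junction genes, 7 were called higher, but 4 with the likelihood ratio test, library size only and DESeq2, and 4 to 10 with a library left out. None was called lower, but 2 were with library size only (ADAM10 and CTNNB1), 1 was (CTNNB1) with the reduced library sizes, no filter, at least 10 counts, offsets, DESeq2 and limma-trend, and 0 to 2 were with a library left out.

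With library size only, log2 fold changes turned to -0.0471 (CTNNA1), -0.0391 (CTNND1), -0.00543 (PKP2), -0.00361 (DSC2), -0.040 (CDH24), -0.0292 (TCF3) and -0.0122 (ESRP1). CTNNA1 was at -0.00052 with the reduced library sizes and between -0.0181 and 0.0527 with a library left out, DSG2 between -0.0860 and 0.0279 and CDH24 between -0.0249 and 0.0776. With offsets, CDH24 was at -0.0335 and TCF3 at -0.0362. Fits that leave out a library assume that the lone library of its condition varies like the others.

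The replicate number was not treated as a pairing, since only 2 pairs exist and deviations of same-numbered libraries had a correlation of -0.0389 over 10209 genes. With the replicate block, 5 of the 10 genes were called higher (JUP was added), 0 were called lower, and 8 other junction genes were called higher and 1 lower (CTNNB1); over all genes it called 1223 higher and 944 lower. The block with offsets gave 4 of the 10 higher, 9 other junction genes higher and 1 lower, with CDH24 at -0.0332 and TCF3 at -0.0362. Over all genes, calls fell from 1024 higher and 758 lower to 651 and 488 with the likelihood ratio test and to 509 and 285 with DESeq2, and the block with offsets gave 1576 and 1126. At 18276147 counts in the shallowest library, the intervals of the 6 genes not called still allow rises of up to 1.17-fold.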
